A study of Homo sapiens with 9 samples.

Results

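Reelin (RELN) is a secreted glycoprotein that binds receptors on the surface of neurons, and it is described here together with its receptors VLDLR and LRP8 and the intracellular adaptors DAB1, CRK and CRKL. RELN was chosen by its measured values, as a gene among the largest increases in the libraries labelled as a knockdown of TRAP-1, and the other members were taken for their roles in the pathway. All 6 members had a row among the 22290 genes of the expression table. The RNA came from cells with the cell line label IMR-32, a long-established line from a human neuroblastoma, and the tissue label Brain, in 3 groups of 3 libraries. Parental cells (PAR) had the genotype label WT. In the other groups the label was knockdown of TRAP-1 (KD) or its overexpression (OE). The KD and OE cells had been made before the study, and neither the construct, a control vector nor the number of clones was given in the sources used here, so each group may stand for a single derived line. Total RNA was isolated with Trizol and sequenced from a library kit that does not mark the strand.

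In the developing brain reelin is released by Cajal-Retzius cells and later by interneurons, and it guides where migrating neurons settle into layers. Its binding to VLDLR and LRP8 (also named ApoER2) leads kinases of the SRC family to phosphorylate DAB1, which is bound to the receptor tails. Phosphorylated DAB1 then recruits CRK and CRKL with the exchange factor RAPGEF1, and feeds the PI3K and AKT arm before it is degraded.

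The values were regularized log2 values (rlog), in which library size is taken out and each gene is pulled toward its mean, so that differences between them understate changes of low genes. Such values do not show how deeply a library was sequenced. A gene was called when its adjusted p was under 0.05 in limma, a linear model over all 22290 genes. The labels did not say whether the 3 libraries of a group came from separate cultures, and the p-values measure only the spread between these libraries. In bulk RNA, fewer cells that express a gene and less RNA per cell cannot be told apart.

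The targeted gene went against the labels. The rlog level of TRAP1 (ENSG00000126602) was 10.67, 10.66 and 10.65 in PAR, 10.79, 10.79 and 10.83 in the libraries labelled KD, and 10.67, 10.63 and 10.74 in those labelled OE. Every library labelled KD was above every parental library, and the libraries labelled OE overlapped the parental range. The difference was 0.14 for KD minus PAR (adjusted p = 1.76e-05) and 0.018 for OE minus PAR (adjusted p = 0.643). Other genes of the annotation overlap 28.5% of its exonic bases, so reads of TRAP1 and of its neighbours may be mixed. All directions given for KD and OE are therefore those of the libraries that carry these labels.

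The cell line label was compared with marker genes of neuroblastoma. Of 14 markers of adrenergic neuroblastoma 11 had a row, and DBH and DDC were among those without one. The rlog level was near the bottom of the scale in PAR for PHOX2A (1.33), TH (2.84) and MYCN (2.52), the last a gene that IMR-32 is known to carry amplified. ISL1 (9.37), GATA2 (9.27) and ALK (8.61) were at higher rlog levels. Of 10 general neuronal markers 6 had a row, with TUBB3 at 1.92 and NEFL at 9.10 in PAR, and STMN2, ELAVL4, SNAP25 and INA had none. CFL1, a gene used by nearly every cell, was also low at 4.92 in PAR, with 19% of its exonic bases shared with other genes. TUBB3 shares 21.3%, and NEFL, at a higher rlog level, shares 19.8%. MYCN and PHOX2A share 3.56% and 3.98%, and TH shares 0.0%. The part of shared bases in these levels was not tested.

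Other cell types were looked for in the same way. Over all 22290 genes 53.7% were called in KD minus PAR and 34.8% in OE minus PAR, and the counts of called markers are read beside these shares. The mesenchymal list, with 8 of 9 genes in the table, was led by VIM at a mean rlog of 15.89 over all libraries, while COL1A2 (1.36) and COL3A1 (1.16) were near the bottom in PAR. In KD 3 of the 8 were called higher and 1 lower, and in OE 4 were called higher. VIM rose by 0.36 in KD (adjusted p = 9.56e-26) and by 0.15 in OE (adjusted p = 5.11e-15). FN1, fibronectin, with the next highest rlog level, fell by 0.96 in KD (adjusted p = 3.01e-33) and rose by 0.55 in OE (adjusted p = 8.17e-26), and PRRX1 rose by 1.29 and 0.69. The summed level of the list, taken back from the log2 scale, was 74370, 74230 and 74160 in PAR, 86730, 87360 and 86630 in KD, and 89900, 89050 and 90490 in OE, higher in both than in PAR although FN1 went opposite ways. The adrenergic list summed to 2022, 1972 and 2000 in PAR, 1927, 1910 and 1952 in KD, and 1841, 1918 and 1870 in OE, with ISL1 its most abundant gene. Of its 11 genes 3 were called higher and 5 lower in KD (72.7% in all), and 3 lower in OE (27.3%). The general neuronal list, led by NEFL, summed to 744.6, 775.3 and 739.2 in PAR, 726.5, 747.6 and 762.5 in KD, and 987.9, 984.8 and 1034 in OE. The higher sum in OE went with NEFL, which rose by 0.53 (adjusted p = 4.26e-14), and the other 5 genes of the list were not called there. In KD SYT1 rose by 0.26 and NEFM by 0.17, NEFL fell by 0.12 and 3 were not called. The epithelial list (9 of 12 genes, led by KRT18) summed to between 6011 and 6077 in PAR and 6034 and 6263 in KD, and was lower in OE at 5452 to 5520, where CLDN4 fell by 0.57. In KD 1 of its genes was called higher and 2 lower, and in OE 1 higher and 3 lower. KRT14 fell by 0.70 in KD (adjusted p = 1.29e-14) and 0.49 in OE, and KRT8 rose by 0.39 and 0.40. The hepatic list (3 of 8, led by SERPINA1) summed to between 641.9 and 687.9 in PAR, 528.0 and 553.3 in KD, and 446.4 and 505.3 in OE, without overlap. SERPINA1 was the 1 gene of it that was called, and fell by 0.32 in KD (adjusted p = 1.11e-08) and 0.49 in OE (adjusted p = 4.35e-12). The blood list (4 of 7, led by CD14) was low throughout, between 29.63 and 32.21, and every PAR library was above the others, with CD14 the 1 gene called, lower in both comparisons. Several markers that define the labelled cell type were thus near the bottom of the scale or without a row in all groups, and the part of cell identity in the results was not tested.

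Cells that make reelin in the brain were covered by a list of Cajal-Retzius and interneuron markers. Of its 12 genes 7 had a row and LHX5, TBR1, GAD2, SST and NPY had none. In KD minus PAR all 7 were called, against 53.7% of all genes. At a mean rlog of 5 to 7, 7 to 9 and 9 to 11 the share called was 58.3%, 70.3% and 74.3%. CALB2, at 4.16 in PAR, lay below these levels. Of the 7, 2 were called higher, LHX1 (difference 0.43, adjusted p = 1.9e-16) and GAD1 (0.31, 1.54e-07), and 5 were called lower, with the largest fall in DLX2 (-0.73, 3.36e-17). In OE minus PAR 4 were called lower, LHX1 among them (-0.21, 1.88e-08). This was 57.1%, against 34.8% of all genes and 30.4%, 46.5% and 53.3% at those levels. The list summed to 3760, 3702 and 3745 in PAR, 3723, 3781 and 3704 in KD, and 3390, 3422 and 3408 in OE. Its highest mean rlog was that of DLX1 in PAR (10.37) and OE (10.36) and that of LHX1 in KD (10.70). The summed level in KD overlapped that in PAR, and OE was below both.

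RELN (ENSG00000189056) lies on the minus strand of chromosome 7 of GRCh38, from 103471381 to 103989658, and shares no exonic base with another annotated gene. The 250 bases before its start are shown because RELN is the member whose level differed most between the groups, and they come from RefSeq (GRCh38.p14, chr7:103989659-103989908, minus strand, upstream of the annotated exons). Capitals mark GGGCGG, the GC box, and CACGTG, an E-box.

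RELN promoter: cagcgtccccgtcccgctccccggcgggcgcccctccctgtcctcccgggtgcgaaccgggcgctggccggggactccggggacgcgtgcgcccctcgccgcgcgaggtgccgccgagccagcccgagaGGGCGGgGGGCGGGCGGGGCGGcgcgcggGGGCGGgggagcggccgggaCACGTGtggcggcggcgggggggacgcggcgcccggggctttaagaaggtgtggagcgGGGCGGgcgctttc

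GGGCGG was searched on both strands (as GGGCGG and CCGCCC) and occurred 6 times in this window, and 42.6% of the 35116 RefSeq promoter windows of the same length hold it at least once. CACGTG, which reads the same on both strands, occurred 1 time and is held by 6.34% of windows. The shorter ACGTG was counted 2 times, on either strand within that CACGTG, and is held by 18.5%. The window held 43 CG pairs at 83.2% G and C, against a median of 11 CG pairs, and 1.02% of windows held at least as many. All 6 members matched the RefSeq table, with 11 windows in all, 6 of them for DAB1. Among the others VLDLR held 41 CG pairs, CRK 34, CRKL 32 and LRP8 31, and the windows of DAB1 held between 12 and 41. A match of letters is a description of the window, and no binding or methylation was measured.

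The rlog level of RELN was 5.45, 5.60 and 5.59 in PAR, 8.01, 7.98 and 8.01 in KD, and 5.47, 5.48 and 5.57 in OE. The libraries labelled KD stood far above all others, while PAR and OE overlapped. The group means were 5.55 ± 0.087 (SD, n = 3) in PAR, 8.0 ± 0.020 in KD and 5.51 ± 0.056 in OE. KD minus PAR was 2.45 and OE minus KD was -2.49, a ratio of 5.48 and 0.178 on the linear scale, and these are descriptions without a test because RELN was selected on this increase. With 8 added to the linear values before the logarithm they were 2.27 and -2.30.

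Ordered by the increase in KD, RELN was at rank 4 of 22290 genes. The genes just above it were RAPGEF6 (difference 2.62) and ART3 (2.65), and just below it were ABCA8 (2.43) and LINC01684 (2.37). The OE libraries were not used to choose RELN, although the parental libraries enter both contrasts. OE minus PAR was -0.04 for RELN (SE 0.049, 95% interval -0.14 to 0.060, adjusted p = 0.594), a difference within the spread between libraries. It was -0.089 without PAR replicate 1 (adjusted p = 0.202) and -0.012 without PAR replicate 2 (adjusted p = 0.9), not called in either.

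**Figure D1:**
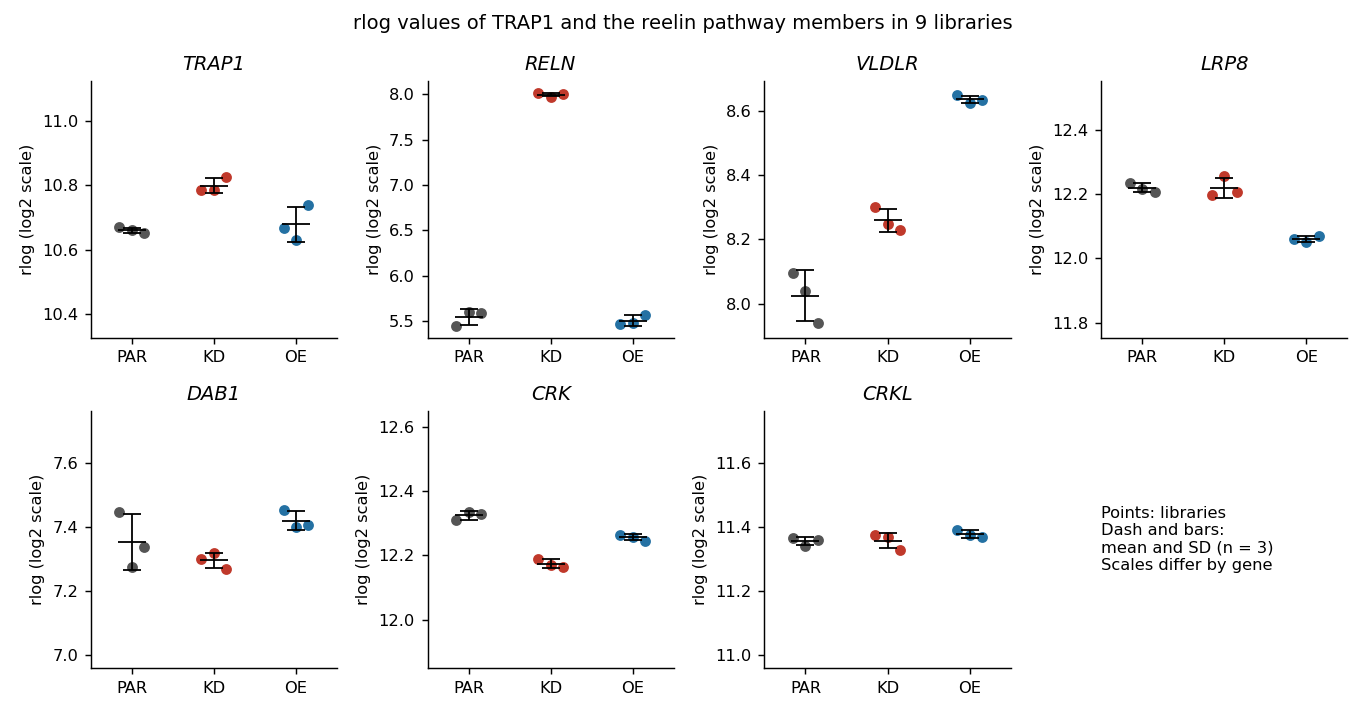
rlog values (log2 scale, vertical axis, scaled per gene) of TRAP1 and the 6 members in the 3 libraries of PAR, KD and OE, with points for libraries and a dash with bars for the mean and SD. RELN sits near 8.0 in KD and near 5.5 elsewhere, VLDLR is higher in KD and more so in OE, and CRKL overlaps between KD and the other groups.

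Because RELN was selected on it, KD minus PAR is counted over the other 5 members. Of these 2 were called, 1 higher (VLDLR) and 1 lower (CRK), where 53.7% of all genes were called, 26.9% higher and 26.9% lower. In OE minus PAR 3 of 6 members were called, 1 higher (VLDLR) and 2 lower (LRP8 and CRK), against 34.8% of all genes, 16.9% higher and 18.0% lower. In OE minus KD 4 of the 5 others were called, 3 higher (VLDLR, DAB1 and CRK) and 1 lower (LRP8), against 47.3%, 23.5% and 23.8%. With so few members these shares do not set the members apart from the table. The share called also grew with the level, from 58.3% in KD and 30.4% in OE at a mean rlog of 5 to 7 to 77.9% and 60.9% at 11 to 13, the range of LRP8, CRK and CRKL.

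VLDLR (ENSG00000147852, chromosome 9, 2621182 to 2660056, plus strand) encodes the very low density lipoprotein receptor, which binds reelin and is known for a stop signal in migrating neurons. Its rlog level was 8.09, 8.04 and 7.94 in PAR, 8.30, 8.25 and 8.23 in KD, and 8.65, 8.62 and 8.63 in OE. The groups did not overlap, with PAR lowest, KD between and OE highest. OE minus PAR was 0.61 (SE 0.039, adjusted p = 2.85e-14), KD minus PAR was 0.23 (SE 0.039, adjusted p = 4.58e-06) and OE minus KD was 0.38 (adjusted p = 7.55e-10).

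The median of the genes around VLDLR was also raised in KD, though 5 of its 23 neighbours within 10 Mb were called lower. The 43 genes of its 20 Mb block with a mean rlog of at least 8 had a median difference of 0.168 in KD and 0.010 in OE. With the block median removed, KD minus PAR of VLDLR was 0.068 and was no longer called (adjusted p = 0.136, in a range of 1.18e-06 to 0.136 over all alternatives). The part of this regional shift in the result was not tested. In OE the call held in all alternatives, with adjusted p values up to 1.71e-06.

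LRP8 (ENSG00000157193, chromosome 1, 53242364 to 53328469, minus strand) encodes the other reelin receptor, known for its part in the later-born layers and at synapses. Its rlog level was 12.24, 12.22 and 12.21 in PAR, 12.20, 12.26 and 12.21 in KD, and 12.06, 12.05 and 12.07 in OE. PAR and KD overlapped and every OE library was below both. OE minus PAR was -0.16 (SE 0.018, adjusted p = 1.08e-08) and OE minus KD was -0.16 (adjusted p = 5.1e-09), a ratio of 0.895 on the linear scale. KD minus PAR was -0.00034 (95% interval -0.037 to 0.036, adjusted p = 0.99). In OE the receptors therefore differed from PAR in opposite directions, VLDLR upward and LRP8 downward.

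DAB1 (ENSG00000173406, chromosome 1, 56994778 to 58546734, minus strand) is the adaptor that docks on the receptor tails. Its rlog level was 7.45, 7.28 and 7.34 in PAR, 7.30, 7.32 and 7.27 in KD, and 7.45, 7.40 and 7.41 in OE. The parental libraries spanned nearly the whole range of the other groups, and every OE library was above every KD library. Neither KD minus PAR (-0.058, SE 0.044, adjusted p = 0.282) nor OE minus PAR (0.066, SE 0.044, adjusted p = 0.281) was called. Both depended on the parental libraries, at -0.011 and 0.11 without PAR replicate 1 and at -0.097 and 0.027 without PAR replicate 2, and over all alternatives the adjusted p ran from 0.0893 to 0.862 for KD and 0.0661 to 0.733 for OE. OE minus KD was 0.12 (adjusted p = 0.0206), and it was no longer called without KD replicate 3 (0.11, adjusted p = 0.0746), without OE replicate 1 (0.11, adjusted p = 0.0825) or with 8 added to the linear values (0.12, adjusted p = 0.0644). Over all its alternatives the adjusted p ran from 0.00985 to 0.0825.

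CRK (ENSG00000167193, chromosome 17, 1420689 to 1463162, minus strand) encodes an adaptor of SH2 and SH3 domains that binds phosphorylated DAB1. Its rlog level was 12.31, 12.34 and 12.33 in PAR, 12.19, 12.17 and 12.16 in KD, and 12.26, 12.26 and 12.25 in OE. The groups did not overlap, with PAR highest and KD lowest. KD minus PAR was -0.15 (SE 0.017, adjusted p = 3.15e-09), OE minus PAR was -0.069 (SE 0.017, adjusted p = 0.00146) and OE minus KD was 0.082 (adjusted p = 0.00013), all small on the linear scale, at ratios of 0.901, 0.954 and 1.06. With the median of its block removed, OE minus PAR was -0.043 and still called (adjusted p = 0.0418, in a range of 0.000541 to 0.0418 over all alternatives).

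CRKL (ENSG00000099942, chromosome 22, 20917407 to 20953747, plus strand) is the close relative of CRK with the same arrangement of domains. Its rlog level was 11.36, 11.34 and 11.36 in PAR, 11.37, 11.37 and 11.33 in KD, and 11.39, 11.38 and 11.37 in OE. KD overlapped both other groups, and every OE library was above every parental library, though the difference was not called. KD minus PAR was 0.0017 (95% interval -0.040 to 0.043, adjusted p = 0.952), OE minus PAR was 0.023 (interval -0.018 to 0.064, adjusted p = 0.426) and OE minus KD was 0.021 (adjusted p = 0.419). With the median of its block removed, OE minus PAR was 0.065 and was called (adjusted p = 0.0175), since the 124 genes of that block had a median of -0.041 in OE. Over all alternatives of this result the adjusted p ran from 0.0175 to 0.664.

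Levels of different genes were compared per kilobase of exon, as the mean rlog minus the log2 of the exonic length. The length was the union of all annotated exons (35421 bases for RELN, 16507 for VLDLR, 19668 for LRP8, 7551 for DAB1, 4064 for CRK and 5342 for CRKL), which can exceed that of the expressed transcript, so the order is approximate. In PAR the log2 level per kilobase was 10.3 for CRK, 8.94 for CRKL, 7.92 for LRP8, 4.44 for DAB1, 3.98 for VLDLR and 0.40 for RELN. Adaptors CRK and CRKL and the receptor LRP8 were thus the abundant members, and the ligand the least abundant. The order was the same in KD, where RELN reached 2.85 and VLDLR 4.21, and in OE VLDLR (4.59) came before DAB1 (4.50). Neighbours in each order differed by more than the SD of either over the libraries. Other genes overlap 8.24% of the exonic bases of VLDLR, 9.69% of those of LRP8 and 5.03% of those of DAB1, and none of those of CRK and CRKL.

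The balance of the receptors was read within each library. LRP8 exceeded VLDLR in log2 level per kilobase by 3.94 ± 0.066 (SD, n = 3) in PAR, 3.71 ± 0.056 in KD and 3.17 ± 0.010 in OE. The ranges were 3.89 to 4.02, 3.65 to 3.76 and 3.16 to 3.18, so that the groups did not overlap and the gap was narrowest in OE. RELN lay below VLDLR by the same measure in all groups, at -3.58 ± 0.155 in PAR, -1.36 ± 0.035 in KD and -4.23 ± 0.059 in OE. CRK exceeded CRKL by 1.36 ± 0.025, 1.21 ± 0.015 and 1.27 ± 0.0045. These values are descriptions and were not tested.

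**Figure D2:**
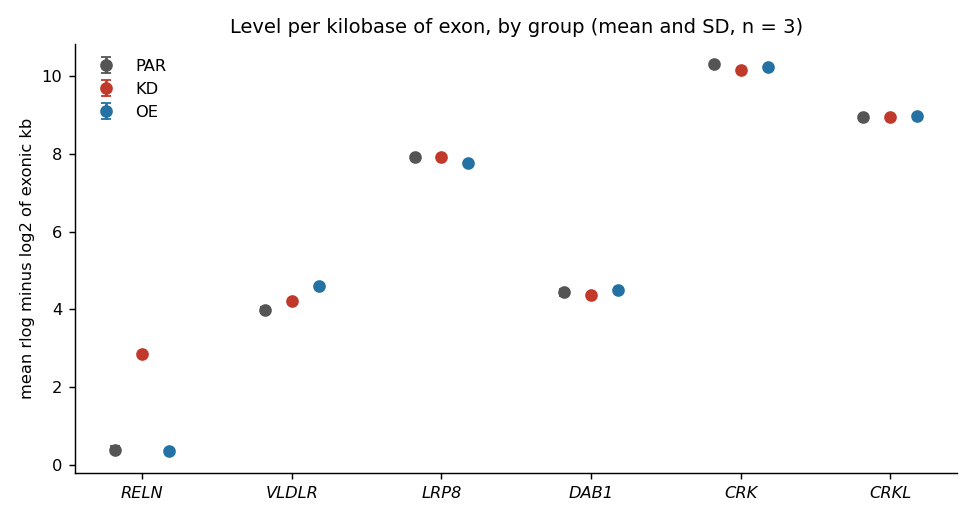
Mean rlog minus the log2 of exonic kilobases (vertical axis) of the 6 members in PAR, KD and OE, with bars for the SD of 3 libraries. CRK is highest at 10.3 in PAR and RELN lowest at 0.40, rising to 2.85 in KD.

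The genes with profiles most like each member were found by the root mean square distance over the 9 libraries, after the parental mean was taken from each gene, among the 18433 genes with a symbol. Of these, nearest to RELN were LINC01684 (distance 0.074), RAPGEF6 (0.109), MYEF2 (0.207), MSRB3-AS1 (0.234) and ART3 (0.27), each far higher in KD than in PAR and OE. Their differences in KD minus PAR were 2.37, 2.62, 2.20, 2.08 and 2.65, and in OE minus PAR 0.017, -0.019, -0.23, -0.16 and 0.37. They lie on chromosomes 21, 5, 15, 12 and 4, none on that of RELN. Of the exonic bases of RAPGEF6 and ART3, 54.9% and 40.1% are shared with other genes, so their values are uncertain.

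Nearest to VLDLR were TMEM178B (distance 0.0371), RAPGEF4 (0.0552), BHLHE40 (0.0671), CCDC33 (0.0705) and GJA5 (0.0727). All were higher in KD than in PAR and higher again in OE, with KD minus PAR between 0.18 and 0.25 and OE minus PAR between 0.56 and 0.70. For LRP8 the nearest profiles were FANCG, ALDH3A2, MCL1, MICB and POLR1E (0.0205 to 0.0255), and for DAB1 they were GLIS3, P2RX4, RASIP1, CMSS1 and KLRA1P (0.026 to 0.0336), the last uncertain because other genes overlap all of its exonic bases. CRK was followed most closely by DDX21 (0.00554), AMD1, HSPA4, MCMBP and SLC38A1, and CRKL by CFAP46, MED13L, HDAC2, LINC01620 and GGA2. The profiles of CRKL are nearly flat, and CFAP46 and LINC01620 are near the bottom of the rlog scale.

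**Figure D3:**
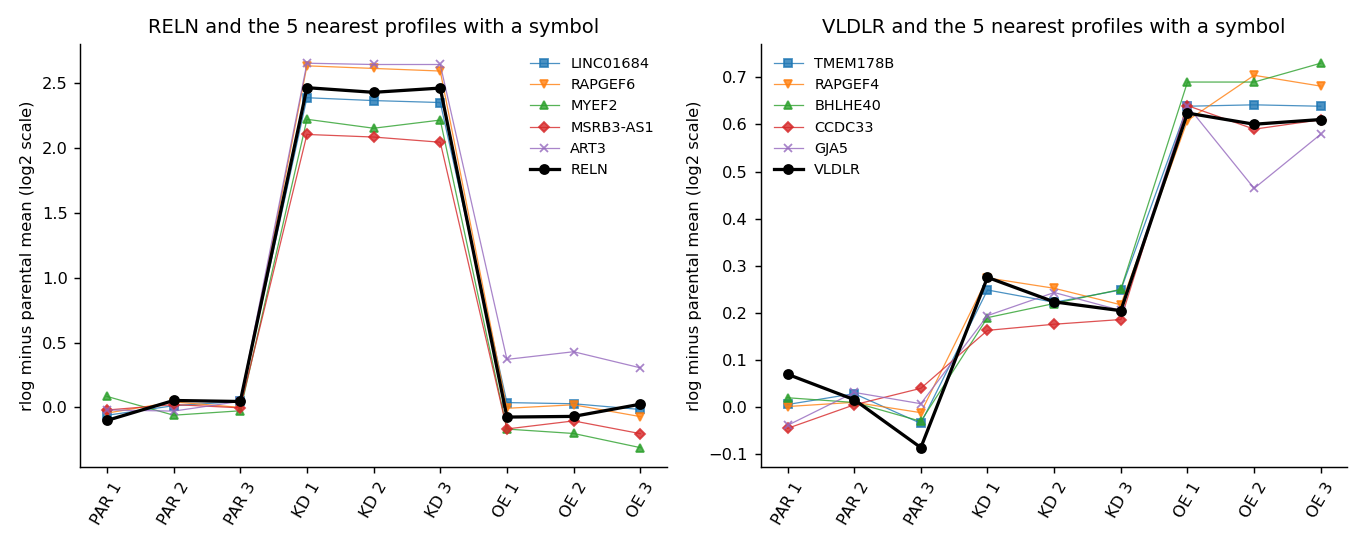
rlog minus the parental mean (log2 scale) in the 9 libraries for RELN and VLDLR (black) and the 5 nearest profiles of each among genes with a symbol. RELN and its nearest genes are high in the 3 KD libraries, at 2.08 to 2.65 on average, and VLDLR and its nearest genes step up from PAR to KD to OE.

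The genes around each member on its chromosome were described within 10 Mb of its middle and at a mean rlog of at least 8. RELN had 90 such neighbours, of which 38 were called higher and 26 lower in KD minus PAR, with a median difference of 0.035. RELN stood above them all, which follows from its selection on this increase. Of all genes at a mean rlog of 7 to 9, 9 to 11 and 11 to 13, 70.3%, 74.3% and 77.9% were called in KD and 46.5%, 53.3% and 60.9% in OE, so the counts of called neighbours are read beside these shares. The nearest on each side, DNAJC2 at -0.402 Mb and ORC5 at 0.437 Mb, differed by -0.17 (adjusted p = 0.00123) and -0.19 (adjusted p = 3.05e-08), opposite in sign to RELN. The neighbour with the largest increase was VGF at 1.90, named after its value was seen. In OE minus PAR 24 of the 90 were called higher and 20 lower, with a median of 0.013.

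VLDLR had 23 neighbours, of which 15 were called higher and 5 lower in KD, with a median of 0.157 and 78.3% above 0. VLDLR was at rank 7 when placed among them in KD and at rank 1 in OE, where 6 were higher and 8 lower with a median of -0.031. Its nearest neighbours SMARCA2 and PUM3 differed by 0.17 (adjusted p = 3.37e-09) and -0.15 (adjusted p = 3.47e-10) in KD, and by -0.077 and -0.11 in OE. The neighbours of LRP8 (86), DAB1 (61), CRK (104) and CRKL (81) had medians in KD of 0.016, -0.00013, -0.019 and -0.050, and in OE of 0.00063, 0.011, -0.032 and -0.048. LRP8-DT, a divergent transcript beside LRP8, differed by 0.25 in KD (adjusted p = 1.29e-06) and -0.076 in OE (adjusted p = 0.133), and without strand its reads cannot be told apart from those of LRP8 where they overlap.

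**Figure D4:**
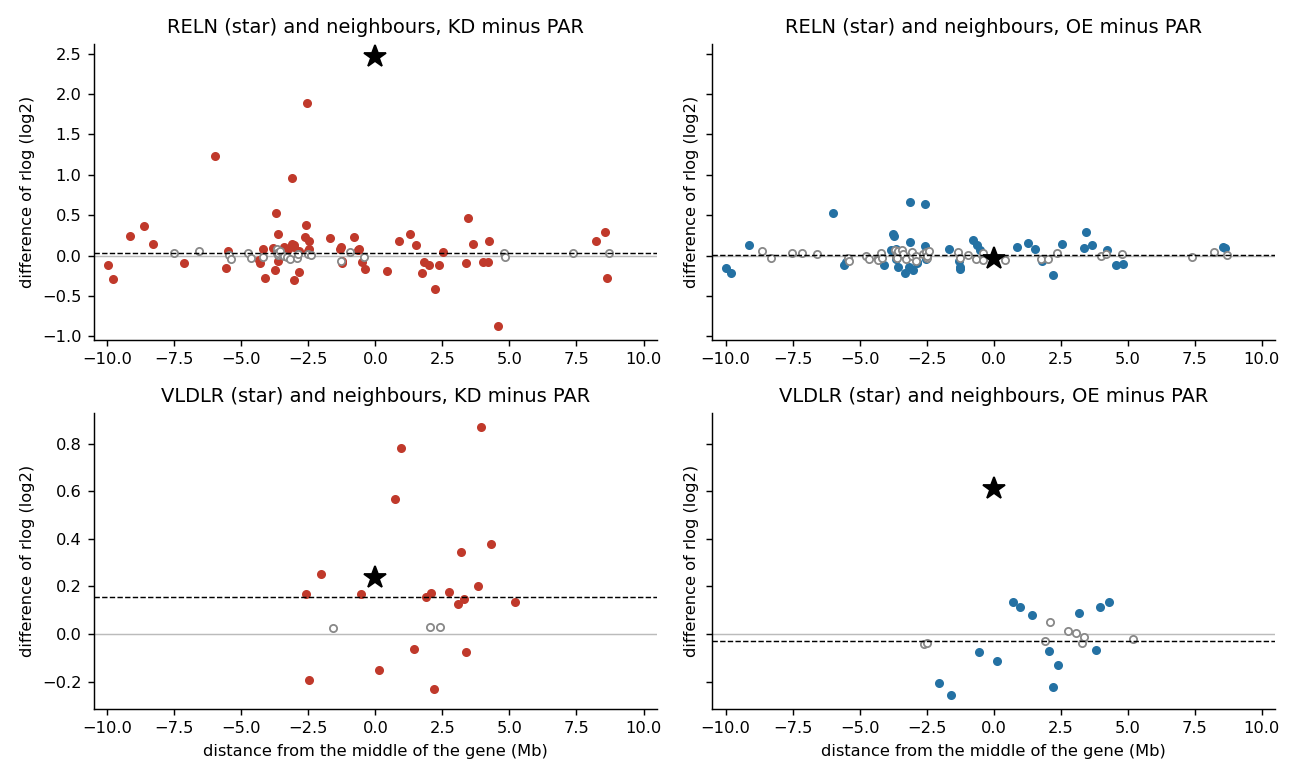
Difference of rlog from PAR (vertical axis, log2) against the distance from the middle of RELN or VLDLR (horizontal axis, Mb), with filled points for called genes, open points for the rest, a star for the member and a dashed line for the median of its neighbours. VLDLR lies above all its neighbours in OE (0.61) and among them in KD (0.23), while the place of RELN in KD (2.45) follows from its selection on that value.

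The rest of the pathway was described by 12 lists with 143 genes, of which 129 had a row. In KD minus PAR 49 were called higher and 51 lower (77.5% in all), with a median difference of -0.011 against -0.00051 over all genes. In OE minus PAR 30 were higher and 37 lower (51.9%), with a median of -0.0060 against 0.00039. The medians of single lists ran from -0.113 (co-receptors) to 0.067 (PI3K arm) in KD and from -0.187 (cleavage) to 0.076 (synaptic partners) in OE. These shares lie above the 53.7% and 34.8% of the whole table and near those of genes at a mean rlog of 9 to 11, of which 74.3% and 53.3% were called. An absolute difference over 0.5 was seen in 15 of the 129 in KD and 2 in OE, against 1110 and 200 of all 22290 genes. No share at the levels of the list genes was computed for this, and rlog understates changes of low genes. Some stretches of the genome shifted together in KD, and with the medians of 20 Mb blocks removed 84 of the 100 list genes called in KD kept call and direction, 11 lost the call and 5 turned to the other direction. In OE 58 of 67 kept it, 7 lost it and 2 turned.

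Of the proteases that cleave reelin and their inhibitors 9 of 10 had a row, and ADAMTS5 had none. In KD 3 were higher and 5 lower, and in OE 1 was higher and 6 lower. ADAMTS4 rose by 1.59 in KD (adjusted p = 1.59e-27) and 1.09 in OE (adjusted p = 3.88e-22), from a mean rlog of 8.45 in PAR. ADAMTS2 fell by 0.56 and 0.46, and PLAT, the tissue plasminogen activator, fell by 0.66 in KD (adjusted p = 1.25e-28) and 0.34 in OE. ADAMTS3, known as the main protease that inactivates reelin in the brain, differed by 0.28 in KD (adjusted p = 2.54e-10), but with the median of its block (0.396) removed by -0.11 (adjusted p = 0.000958). In OE it differed by -0.10 (adjusted p = 0.005), and by -0.045 (adjusted p = 0.226) without the block median. FURIN fell by 0.38 in KD and 0.19 in OE.

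Among the other ligands and binders of the receptors 9 of 10 had a row, without PLAU, with 3 higher and 4 lower in KD and 2 higher and 3 lower in OE. THBS1, thrombospondin 1, fell by 1.48 in KD (adjusted p = 2.24e-35) and 0.52 in OE (adjusted p = 1.85e-22) from a mean rlog of 13.66. PROS1 rose by 0.70 and 0.39, and CLU, clusterin, fell by 0.51 and 0.24. GAS6 fell by 0.46 in KD, and its difference in OE was -0.024 (adjusted p = 0.68). APOE, at a mean rlog of 4.11 in PAR, differed by -0.080 (adjusted p = 0.151, called in 2 of 15 alternatives) and -0.0039 (adjusted p = 0.966). The changes in this list thus ran in both directions.

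The receptor chaperone, sorting and turnover list had 11 of 12 genes, with 2 higher and 5 lower in KD and 1 higher and 3 lower in OE. MYLIP, the ubiquitin ligase that marks VLDLR and LRP8 for degradation, rose by 0.21 in KD (adjusted p = 9.46e-08) and 0.23 in OE (adjusted p = 7.66e-08). The chaperone MESD fell by 0.21 and 0.093, and LRPAP1, the receptor-associated protein, fell by 0.13 in KD (adjusted p = 6.6e-07) and by 0.11 in OE, or by 0.064 without the block median (adjusted p = 0.00563). Of the other receptors in the family of VLDLR and LRP8 10 of 11 had a row, without LRP11, with 4 higher and 2 lower in KD and 4 higher and 0 lower in OE. LRP1 rose by 0.54 in KD (adjusted p = 1.13e-20) and 0.40 in OE, whereas LRP3 fell by 0.59 in KD and rose by 0.30 in OE. LRP1B rose by 0.39 in OE and LRP10 by 0.45 in KD.

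All 11 co-receptors of reelin had a row, with 3 higher and 7 lower in KD and 1 higher and 6 lower in OE. The ephrin EFNB2 fell by 0.52 in KD and 0.49 in OE, and its exonic bases are shared at 36.4%. The receptors EPHB1 and EPHB2 fell by 0.49 and 0.44 in KD and by 0.42 and 0.44 in OE, while EFNB3 rose by 0.40 and 0.43. EPHB3, named after its values were seen, was called higher in KD (0.074, adjusted p = 0.0096), a call lost in 2 of 16 alternatives. With its block median of 0.232 removed it differed by -0.16 (adjusted p = 2.38e-06). The integrin subunit ITGA3 fell by 0.14 in OE (adjusted p = 1.29e-10). Its difference in KD was 0.031 (adjusted p = 0.0389), a call lost in 8 of 16 alternatives, with adjusted p values up to 0.211. ITGB1 differed by -0.046 in KD (adjusted p = 0.00446), or by -0.088 without the block median (adjusted p = 1.08e-07), and the call was lost in 1 alternative (adjusted p = 0.0719). In OE it differed by -0.027 (adjusted p = 0.122), and by -0.037 without the block median, then called (adjusted p = 0.0114, and up to 0.371 in other alternatives).

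Of the SRC family kinases and their regulator CSK 7 of 10 had a row, with FGR and BLK among those without one. Of the 7, 3 were higher and 3 lower in KD, and 2 were higher and 2 lower in OE. FYN, a main kinase of DAB1, rose by 0.20 in KD (adjusted p = 3.29e-10) and 0.075 in OE (adjusted p = 0.00303), the latter 0.049 without the block median (adjusted p = 0.0582). SRC differed by -0.29 in KD (adjusted p = 2.17e-12), but the 90 genes of its block had a median of -0.331 and without it the difference was 0.037 (adjusted p = 0.191). In OE SRC differed by -0.040 (adjusted p = 0.215), but with the block median of -0.114 removed by 0.074, then called (adjusted p = 0.015, and up to 0.641 in other alternatives). CSK fell by 0.19 in both comparisons.

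The list of DAB1 partners and turnover had 16 of 17 genes, without UBE2F, with 7 higher and 6 lower in KD and 2 higher and 3 lower in OE. GULP1, an adaptor that binds receptor tails, fell by 0.82 in KD (adjusted p = 2.88e-24), NOTCH1 by 0.60 and ARIH2 by 0.47. The blocks of NOTCH1 and ARIH2 had medians of -0.346 and -0.308 in KD, without which the differences were -0.25 and -0.16. GULP1 differed by 0.061 in OE (adjusted p = 0.0385), a call lost in 5 of 16 alternatives. In OE NOTCH1 differed by -0.071 (adjusted p = 0.0102), and by 0.028 without the block median (adjusted p = 0.287). Among the genes of DAB1 degradation CUL5 differed by -0.025 in KD (adjusted p = 0.483) and 0.0071 in OE (adjusted p = 0.884), and SOCS7 by -0.012 (adjusted p = 0.633) and -0.037 (adjusted p = 0.143). Others of the turnover genes were called in KD, which were named after their values were seen. SOCS6 rose by 0.079 (adjusted p = 0.0026), CBL by 0.075 (adjusted p = 0.000465, or by 0.043 without the block median) and RNF7 by 0.099 (adjusted p = 0.0438), the last a call lost in 7 of 16 alternatives. PAFAH1B1, the LIS1 protein that binds DAB1, fell by 0.079 in KD (adjusted p = 0.00013) and differed by -0.021 in OE (adjusted p = 0.364).

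The list of CRK and CRKL effectors, which also holds RAP proteins and other RAP regulators, had a row for all 14 genes. In KD 5 were higher and 7 lower, and in OE 2 were higher and 7 lower. RAPGEF6, an exchange factor for RAP proteins, rose by 2.62 in KD, with its rlog level near 12.0 in the 3 KD libraries and at 9.34 to 9.43 in PAR. It was at rank 3 of the increases among which RELN was chosen, so this value is a description without a test. Other genes share 54.9% of its exonic bases. In OE it differed by -0.019 (adjusted p = 0.66). RAPGEF1, the partner of CRK in reelin signalling, fell by 0.19 in OE (adjusted p = 3.23e-08, and by 0.090 without the block median). In KD it differed by -0.28 (adjusted p = 2.06e-12), and by 0.068 (adjusted p = 0.00987) once the median of its block, -0.346, was removed. ABL2 fell by 0.52 and 0.33, and BCAR1, the docking protein p130Cas, fell by 0.37 and 0.23.

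Of the PI3K, AKT and GSK3 arm 18 of 19 had a row, without PIK3R2, with 10 higher and 6 lower in KD and 6 higher and 4 lower in OE. GSK3B rose by 0.36 in KD. MAPT, which encodes the tau protein, fell by 0.47 in KD (adjusted p = 4.2e-12) and rose by 0.45 in OE (adjusted p = 4.05e-11). PIK3R1, the regulatory subunit that binds DAB1, fell by 0.17 in KD (adjusted p = 3.55e-07), and its difference in OE was 0.064 (adjusted p = 0.0329) or 0.040 without the block median (adjusted p = 0.182). PIK3CD rose by 0.14 in KD (adjusted p = 3.01e-06) and fell by 0.32 in OE (adjusted p = 3e-13).

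The CDK5 arm had 5 of 7 genes, without CDK5R2 and DCX, with 2 higher and 1 lower in KD and in OE alike. CDK5, a kinase that acts beside reelin in neuronal migration, differed by -0.058 in KD (adjusted p = 0.0783, called in 2 of 16 alternatives) and fell by 0.14 in OE (adjusted p = 0.000182), and its activator CDK5R1 fell by 0.18 in KD. NDE1 rose by 0.38 and STMN1 by 0.23 in KD. Of the synaptic partners 7 of 8 had a row, without GRIN1, with 2 higher and 2 lower in KD and 3 higher and 0 lower in OE. DLG4, the scaffold PSD-95, rose by 0.59 in KD (adjusted p = 2.14e-20) and 0.21 in OE, and APBA1 fell by 0.52 in KD, or by 0.15 (adjusted p = 0.00451) without the median of its block (-0.366).

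Regulators of RELN transcription had 13 of 15 genes, without TBR1 and EBF2, with 5 higher and 4 lower in KD and 4 higher and 3 lower in OE. DNMT1, the maintenance DNA methyltransferase, fell by 0.41 in KD (adjusted p = 4.84e-24) and 0.16 in OE (adjusted p = 9.82e-13), the latter 0.105 without the block median, from a mean rlog of 14.45. TET1, which oxidises methylated cytosine, rose by 0.38 in KD (adjusted p = 2.82e-11) and 0.42 in OE (adjusted p = 1.05e-11), and DNMT3A rose by 0.25 in KD. TET3, a relative of TET1 named after its values were seen, fell by 0.14 in KD (adjusted p = 1.91e-07) and 0.16 in OE (adjusted p = 5.45e-08). TET2 and DNMT3B were also named after their values were seen. TET2 was called higher in KD (0.12) and in OE (0.12). Without the block median these were 0.036 (adjusted p = 0.289) and 0.074 (adjusted p = 0.042). DNMT3B differed by -0.036 in KD, not called, but by 0.294 without its block median of -0.331 (adjusted p = 5.15e-09). TP73 fell by 0.25 and 0.32. DNA methylation was not measured.

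**Figure D5:**
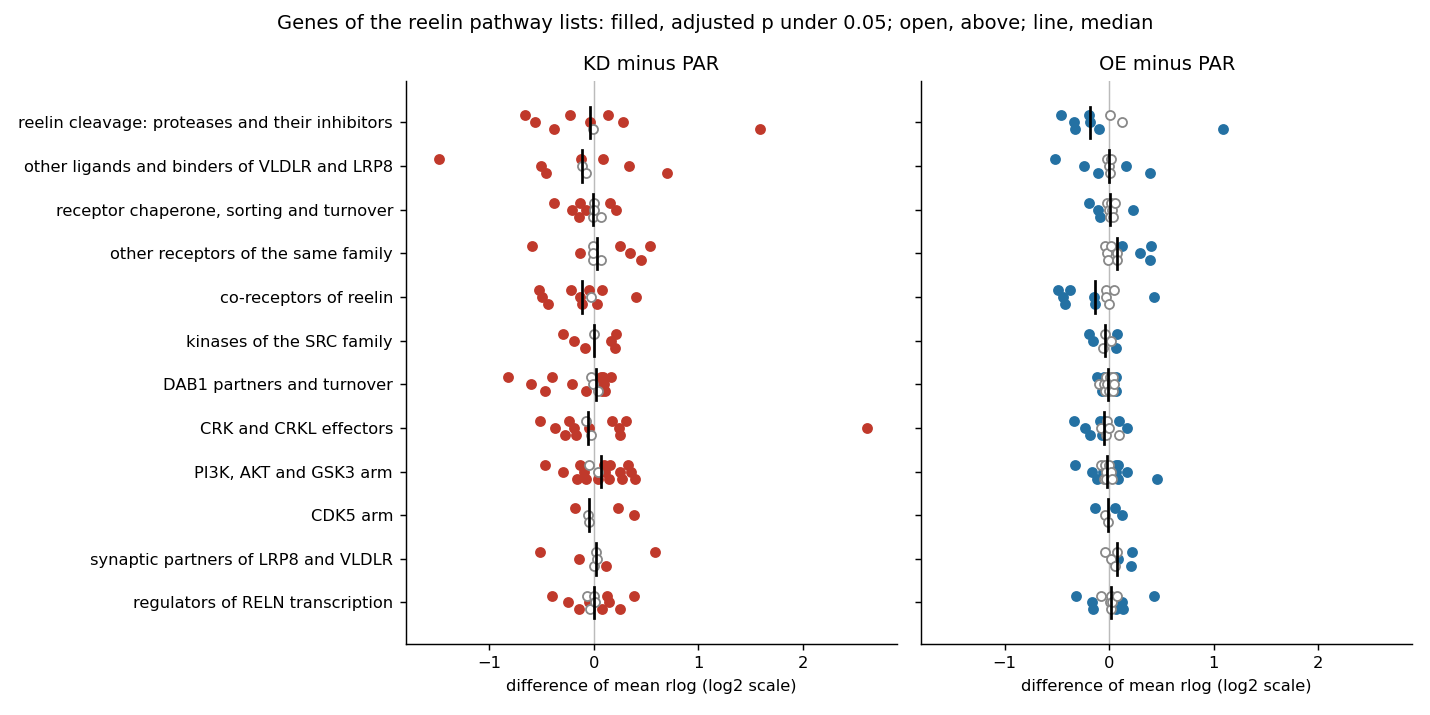
Difference of mean rlog from PAR (horizontal axis, log2 scale) of each gene in the 12 pathway lists, with filled points for an adjusted p under 0.05, open points for the rest and a line for the list's median. The lists spread to both sides of 0, with RAPGEF6 (2.62), ADAMTS4 (1.59) and THBS1 (-1.48) farthest out in KD.

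The knockdown and overexpression comparisons share the parental libraries, so their values are set side by side and no agreement between them was computed.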

How the data were processed

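RNA of 9 libraries (3 each of PAR, KD and OE, by the genotype labels) was analysed. The submitters' processing notes name cutadapt, HISAT2 on GRCh38, featureCounts of Subread and DESeq2, without versions. The authors removed genes with few reads and deposited regularized log2 values, 1 column per library. The file also held 3 empty columns. Gene IDs were named from GENCODE, where 22195 of 22290 were found and 18433 had a symbol. Differences were tested with limma 3.58.1 in R 4.3.3 (moderated linear model with a variance trend, two-sided, all 9 libraries in a single fit, Benjamini-Hochberg over 22290 genes, called under 0.05), which was tested on simulated data. Tables were made with pandas 2.3.3 and numpy 2.4.6. Members and lists were chosen with earlier results of these data known. Genes named from a list were those with the largest absolute differences among the called, at most 4 per comparison, and some of fixed roles. A few list genes are counted but not reported here by name. Alternatives were no variance trend, a mean rlog of at least 5, a pseudocount of 8, quantile normalization, only the compared groups, the replicate number as a block, medians of 20 Mb blocks removed, a difference over 0.5, and each library left out. For list genes those other than the difference over 0.5 were applied after seeing the data. Library depth cannot be read from these values.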

Additional observations from a re-analysis of the deposited data

How the results depend on the processing

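Of 256 tested values of the members under 16 alternatives, 245 kept their direction and their side of the threshold, and the 32 values of RELN without a test kept their direction. Requiring a difference over 0.5 left 1110 called genes in KD minus PAR, 200 in OE minus PAR and 793 in OE minus KD, which follows from the rule itself. With a pseudocount of 8 RELN differed by 2.27 (KD minus PAR) and -2.304 (OE minus KD), and DAB1 in OE minus KD by 0.1182, no longer called. With block medians removed, VLDLR in KD minus PAR was 0.0677, no longer called, and CRKL in OE minus PAR was 0.06461 and called, and CRK in OE minus PAR was -0.04302 and still called. The causes were not tested.

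Leaving out each library gave ranges of -0.01793 to 0.01041 for LRP8 and -0.006649 to 0.01526 for CRKL in KD minus PAR, uncalled values that changed sign in 3 cases each, and 0.1067 to 0.1348 for DAB1 in OE minus KD. That last call was lost without KD replicate 3 or OE replicate 1. The range was 2.404 to 2.481 for RELN and 0.1916 to 0.2695 for VLDLR in KD minus PAR, and 0.5688 to 0.6467 for VLDLR in OE minus PAR.

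The labels number the libraries 1 to 3 in each group. Deviations of libraries with the same number correlated at -0.0458 to 0.1. Among the OE libraries, each KD library correlated best with that of its own number (0.0861, 0.0156 and 0.1). No PAR library correlated best with its own number in KD or OE. Whether the number pairs the libraries cannot be told from these values. With the replicate block 12015, 7854 and 10623 genes were called, against 11980, 7764 and 10552. Each group holds the numbers 1 to 3, so the block cannot change a difference of group means. The block changed no call of a member. Of list genes called in KD and OE, 78 of 100 and 49 of 67 kept call and direction in all alternatives but the difference over 0.5, which 15 and 2 list genes exceeded. The depth of each library cannot be read from these values.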
